A study of Canis lupus familiaris with 20 samples.

Results

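The 10 genes ASNS, PSAT1, PHGDH, SHMT2, MTHFD2, ATF4, ATF3, DDIT3, TRIB3 and CHAC1 belong to the amino acid arm of the ATF4 stress response, and their mRNA was measured in the retinas of 10 dogs. They were found by name among 13773 named genes on the array and were read by 16 of its 43603 probes, and all 10 passed the filter on dim probes. Where a gene had several probes, the one with the highest mean signal over the 20 arrays served as its main probe, so main probes were selected on mean signal and their brightness is no result. The list of genes was drawn up with the rise of ASNS after CNTF on these arrays already known, so that rise counts as part of the choice and its CNTF values are described with no test.

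Each dog received 12 µg of ciliary neurotrophic factor (CNTF), a cytokine acting through gp130 receptors, into the vitreous of the right eye and phosphate-buffered saline (PBS) into the left, and both retinas were taken 1 week later. The 5 normal dogs were all male and labelled 8.9 weeks old; 4 carried a single mutant copy of CNGB3 (CNGB3+/m) and dog 3 was CNGB3+/+. The 5 mutant dogs were CNGB3m/m for the D262N missense change in a subunit of the cation channel through which cones respond to light, which abolishes daylight vision; 3 were female and 2 male, labelled 10.7 to 11.5 weeks old, although an age near 11 months stands in the study's design text for all dogs. All came from a research colony with a shared background, and each eye was hybridised to 1 single-colour array, which gives 4 groups of 5 arrays.

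In the integrated stress response, kinases that sense amino acid shortage, unfolded protein, viral RNA or lack of haem phosphorylate the initiation factor eIF2, which lowers overall protein synthesis but favours translation of ATF4 mRNA. ATF4 protein then switches on genes that make or import amino acids and feed the folate cycle. It also switches on the transcription factors ATF3 and DDIT3 (CHOP), the kinase inhibitor TRIB3 and CHAC1, an enzyme that degrades glutathione. ATF4 is governed largely at translation, so its mRNA level need not follow its activity.

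Probe positions refer to the canFam2 dog assembly, as the array files give them. The exon or untranslated region that a probe lies in was not assigned here. The sequences shown are those whose identity the results turn on: the second ASNS probe, the pair of ATF4 probes that were never saturated, the single DDIT3 probe, and the PHGDH and MTHFD2 probes, which carry no symbol in the files. All are 60 bases long, 5′ to 3′, and the capitals in ATF4 probe 3 mark its first ATG triplet.
ASNS probe 2, chr14:25672978-25673037, minus strand: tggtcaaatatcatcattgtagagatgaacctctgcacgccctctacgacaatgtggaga
ATF4 probe 2, chr10:28595989-28596048, minus strand: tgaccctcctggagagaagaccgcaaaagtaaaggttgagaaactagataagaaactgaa
ATF4 probe 3, chr10:28596882-28596941, minus strand: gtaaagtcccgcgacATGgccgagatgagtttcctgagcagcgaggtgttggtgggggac
DDIT3 probe 1, chr10:4590247-4590400, minus strand: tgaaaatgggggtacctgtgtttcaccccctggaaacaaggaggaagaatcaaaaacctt
PHGDH probe 1, chr17:59747359-59747418, plus strand: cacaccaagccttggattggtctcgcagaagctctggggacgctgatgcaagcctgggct
MTHFD2 probe 1, chr17:51953877-51953936, minus strand: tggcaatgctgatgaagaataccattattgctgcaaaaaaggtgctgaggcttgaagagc
The DDIT3 probe matches a genomic stretch longer than itself. PHGDH is listed in the files as LOC607890 and was matched by gene number, MTHFD2 was named by its description, and the third PSAT1 probe was also found by description. Of the other probes of these genes, ASNS probe 1 lies at chr14:25666710-25666769 (minus), the main ATF4 probe at chr10:28595704-28595760 (minus), the main SHMT2 probe at chr10:4345183-4345242 (plus) and the ATF3 probe at chr7:13753767-13753826 (plus).

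Levels below are log2 signals relative to the 75th percentile of the same array, so 0 is that percentile and a difference of 1 is a doubling of signal. They order arrays for 1 probe but do not rank genes against each other. That percentile was 291 to 592 intensity units. The share of probes well above background was 67.2 to 71.9% on PBS and 56.2 to 65.5% on CNTF arrays of normal dogs, without overlap, and 60.8 to 66.3% and 52.2 to 70.1% in mutants, and its part in the changes after CNTF was not tested. Differences were tested with limma's moderated test, with the dog as a block where both eyes were compared, and p-values were adjusted over all tested probes by the Benjamini-Hochberg method. A probe is said to have risen or fallen where the adjusted p was under 0.05. For the labelled tissue, all 9 measured rod markers were well above background on every array. In whole retina, fewer cells of a type and less RNA per cell cannot be told apart.

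Members differed in both directions between CNTF and PBS eyes. ASNS, SHMT2 and ATF3 were higher in the CNTF eye of every dog of both genotypes. ATF4 and DDIT3 fell in the mutant dogs, and in normal dogs a single ATF4 probe of 3 fell. PSAT1, PHGDH, MTHFD2, TRIB3 and CHAC1 passed the test in neither genotype. In normal dogs 2 of the 9 genes other than ASNS rose and 0 fell, where 51.2% of all 29336 tested probes were called, 23.6% as higher and 27.6% as lower. In mutant dogs 2 of the 9 rose and 2 fell, where 28.9% of probes were called, 11.6% as higher and 17.3% as lower. PBS and CNTF groups did not overlap for 3 of the 9 in each genotype, against 30.0% of all probes in normal dogs and 14.8% in mutants. Calls were thus common on the whole array, and 9 genes are too few to place the members' counts above or below that background. The split of those calls depends on the background correction: 46.0% of called probes were rises in normal dogs here and 61.1% after normexp correction, and in mutants 40.2 and 56.0%.

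**Figure D1:**
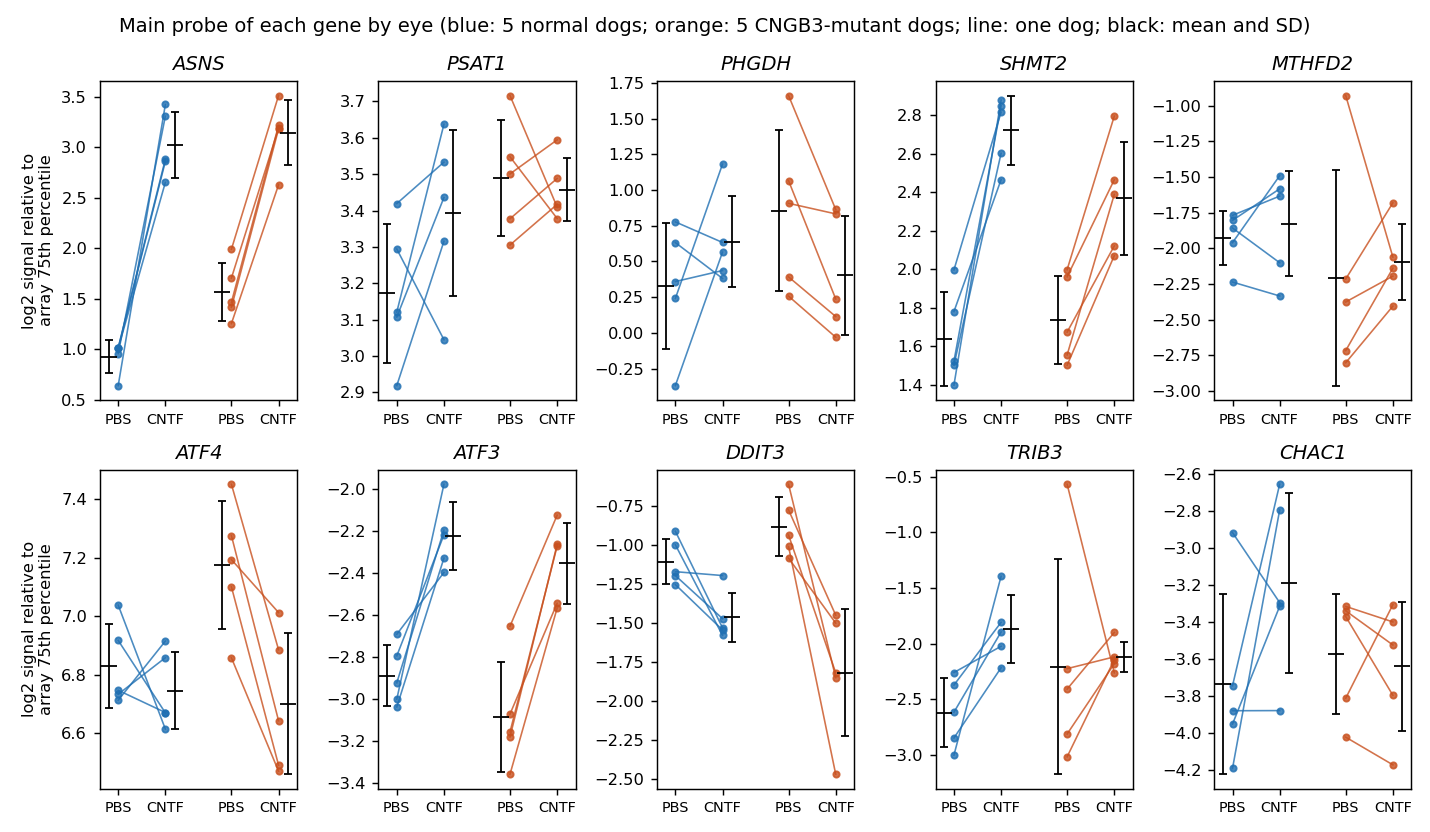
Levels of the main probe of each of the 10 genes (y axes, log2 signal relative to the array's 75th percentile, scaled separately) in PBS and CNTF eyes; each line joins the eyes of 1 dog, blue for the 5 normal and orange for the 5 mutant dogs, with black marks for group mean and SD. The lines of ASNS, SHMT2 and ATF3 rise in all 10 dogs, those of DDIT3 run down in all 10, and those of PSAT1, PHGDH, MTHFD2, TRIB3 and CHAC1 run in both directions over the 10 dogs.

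ASNS makes asparagine from aspartate with glutamine as nitrogen donor. In normal dogs 1 to 5 its main probe measured 1.02, 1.01, 0.96, 1.01 and 0.64 in PBS eyes and 2.88, 2.86, 3.31, 2.65 and 3.42 in CNTF eyes. In mutant dogs 1 to 5 it measured 1.47, 1.99, 1.71, 1.42 and 1.26 in PBS eyes and 3.22, 3.51, 3.19, 3.18 and 2.63 in CNTF eyes. Every CNTF eye lay above every PBS eye of both genotypes. The mean difference was 2.10 ± 0.15 (SE, n = 5 dogs), or 4.28-fold, in normal dogs, and 1.58 ± 0.15, or 2.99-fold, in mutants. In single dogs it lay between 1.64 and 2.78 and between 1.37 and 1.77. The second ASNS probe, at a site several kilobases away in the genome, was higher by 1.14 ± 0.15 in normal and 0.85 ± 0.15 in mutant dogs, a smaller difference than on the main probe in each genotype.

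SHMT2, the mitochondrial enzyme that splits serine into glycine and a one-carbon unit, was the other enzyme that rose. In normal dogs 1 to 5 its main probe measured 2.0, 1.78, 1.52, 1.5 and 1.40 in PBS eyes and 2.82, 2.47, 2.85, 2.60 and 2.88 in CNTF eyes. In mutants the PBS eyes measured 1.56, 2.0, 1.67, 1.96 and 1.5 and the CNTF eyes 2.39, 2.80, 2.12, 2.47 and 2.07. The groups did not overlap in either genotype. The rise was 1.08 ± 0.12 (2.12-fold, adjusted p = 6.87e-05, limma) in normal dogs and 0.63 ± 0.12 (1.55-fold, adjusted p = 0.00321, limma) in mutants. The second SHMT2 probe rose by 0.77 ± 0.10 (adjusted p = 0.000157, limma) and by 0.64 ± 0.10 (adjusted p = 0.000664, limma). In mutants the main probe did not pass after normexp correction (0.43, adjusted p = 0.15, limma), while the second did.

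The other enzymes of serine and folate metabolism among the 10 genes passed the test in neither genotype. PHGDH, which commits glucose carbon to serine synthesis, measured 0.78, 0.63, -0.37, 0.36 and 0.24 in the PBS eyes of normal dogs and 0.63, 0.38, 0.57, 0.44 and 1.18 in their CNTF eyes. In mutants it measured 0.39, 1.66, 1.07, 0.91 and 0.26 in PBS eyes and 0.11, 0.86, 0.24, 0.83 and -0.03 in CNTF eyes. Normal dogs thus split 3 higher and 2 lower, whereas all 5 mutants were lower in the CNTF eye. Neither difference passed: 0.31 ± 0.20 (adjusted p = 0.199, limma) in normal dogs and -0.45 ± 0.20 (adjusted p = 0.11, limma) in mutants.

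PSAT1, which performs the next step of serine synthesis, stayed between 2.92 and 3.72 on its main probe over all 20 arrays. Its difference was 0.22 ± 0.12 in normal dogs (95% interval -0.04 to 0.49) and -0.03 ± 0.12 in mutants (95% interval -0.30 to 0.23). The other PSAT1 probes gave -0.11 ± 0.12 and -0.04 ± 0.13 in normal dogs, so the 3 probes differed in sign, and -0.25 ± 0.12 and -0.10 ± 0.13 in mutants. Without normal dog 2 the main probe passed in normal dogs (0.34, adjusted p = 0.0311, limma).

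MTHFD2, the mitochondrial folate enzyme that works on the one-carbon unit SHMT2 releases, differed by 0.10 ± 0.22 in normal dogs (adjusted p = 0.727, limma) and by 0.11 ± 0.22 in mutants (adjusted p = 0.745, limma). In the PBS eyes of mutants it measured -2.38, -2.80, -2.21, -2.72 and -0.93, and in their CNTF eyes -2.19, -2.40, -1.68, -2.14 and -2.06. Dog 5 alone was higher in its PBS eye, and the other 4 mutants were higher in the CNTF eye by 0.18 to 0.58. Without dog 5 the difference in mutants was 0.42 and passed (adjusted p = 0.0463, limma), so the call on MTHFD2 rested on that animal.

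**Figure D2:**
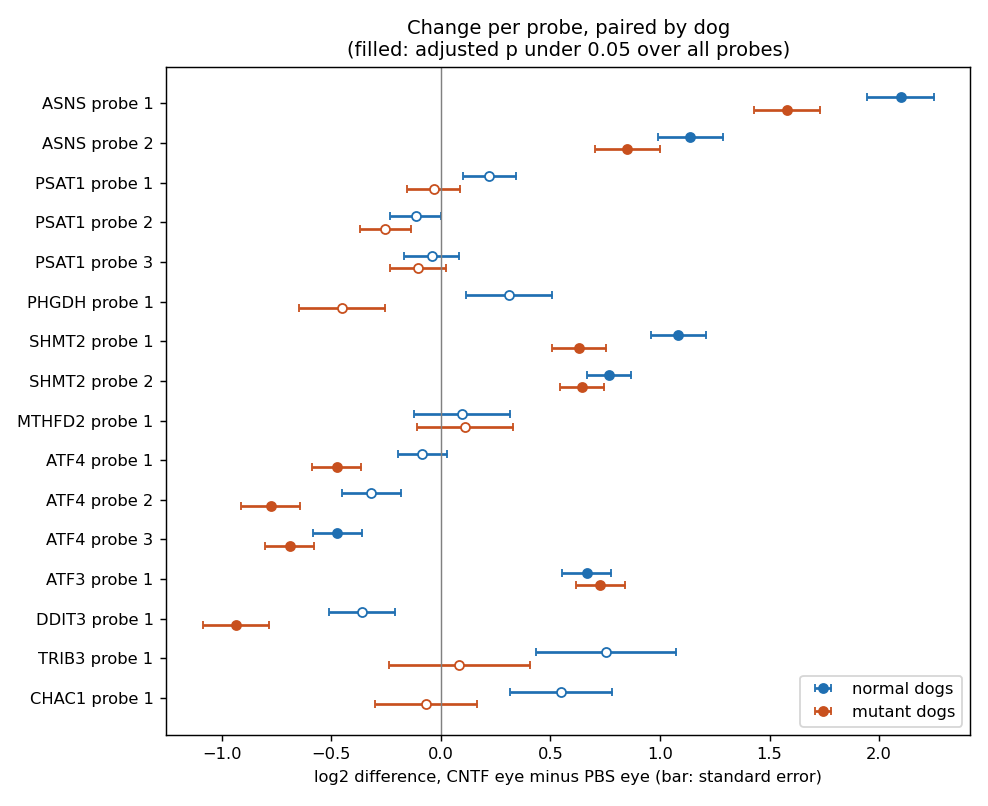
Difference between CNTF and PBS eye for each of the 16 probes (x axis, log2, mean over 5 dogs with its standard error), blue for normal and orange for mutant dogs; filled points have an adjusted p under 0.05. Both probes of ASNS and of SHMT2 lie to the right in both genotypes, and all 3 ATF4 probes lie to the left, filled for 1 probe in normal dogs and for 3 in mutants.

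ATF4, the transcription factor at the head of the programme, did not rise on any of its 3 probes. Its main probe measured 7.04, 6.92, 6.71, 6.75 and 6.73 in the PBS eyes of normal dogs and 6.62, 6.67, 6.92, 6.67 and 6.86 in their CNTF eyes. In mutants it measured 7.19, 7.45, 7.28, 7.10 and 6.86 in PBS eyes and 7.01, 6.89, 6.64, 6.49 and 6.47 in CNTF eyes. The normal groups overlapped widely, and in mutants every dog was lower in its CNTF eye although the groups still overlapped. This probe was saturated on 3 of 5 PBS arrays of normal dogs and on 2 of 5 of mutants, where its true signal may be higher than the reading.

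The main ATF4 probe differed by -0.08 ± 0.11 in normal dogs (adjusted p = 0.549, limma) and fell by 0.48 ± 0.11 in mutants (adjusted p = 0.00906, limma). ATF4 probe 2, never saturated, measured 5.45, 5.27, 4.99, 4.92 and 5.07 in normal PBS eyes and 4.71, 4.85, 4.92, 4.73 and 4.90 in normal CNTF eyes, a difference of -0.32 ± 0.14 that did not pass (adjusted p = 0.0711, limma). ATF4 probe 3, whose sequence holds the marked ATG, measured 2.87, 2.59, 2.46, 2.48 and 2.53 in normal PBS eyes and 2.11, 2.19, 2.31, 2.15 and 1.83 in normal CNTF eyes. Those groups did not overlap, and the probe fell by 0.47 ± 0.11 (1.39-fold, adjusted p = 0.00547, limma).

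In mutants ATF4 probe 2 fell by 0.78 ± 0.14 (1.71-fold, adjusted p = 0.00147, limma) and probe 3 by 0.69 ± 0.11 (1.61-fold, adjusted p = 0.000857, limma), with all 5 dogs lower on each. For normal dogs the ATF4 calls depended on the scaling: the main probe fell by 0.40 after quantile normalization (adjusted p = 0.00347, limma) and by 0.39 in the authors' deposited values (adjusted p = 0.00297, limma), and probe 2 by 0.63 (adjusted p = 0.000749, limma) and 0.65 (adjusted p = 0.000695, limma). On the scaling used elsewhere here, the mean of the 3 probes passed in normal dogs (-0.29, adjusted p = 0.0477, limma).

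DDIT3, the transcription factor CHOP that promotes cell death under lasting stress, was lower in the CNTF eye of all 10 dogs. In normal dogs it measured -0.91, -1.0, -1.20, -1.25 and -1.17 in PBS eyes and -1.53, -1.58, -1.47, -1.55 and -1.20 in CNTF eyes. In mutants it measured -0.77, -1.08, -0.61, -1.01 and -0.94 in PBS eyes and -1.45, -1.5, -1.85, -2.47 and -1.82 in CNTF eyes. The mutant groups did not overlap, and normal groups overlapped through dog 5. DDIT3 fell by 0.94 ± 0.15 (1.91-fold, adjusted p = 0.000845, limma) in mutants and differed by -0.36 ± 0.15 (adjusted p = 0.0659, limma) in normal dogs. The fall in mutants did not pass after normexp correction (-0.25, adjusted p = 0.326, limma). In normal dogs the same difference passed when mutant dog 2 (adjusted p = 0.048, limma) or mutant dog 4 (adjusted p = 0.0478, limma) was left out, since the spread is shared over all arrays.

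ATF3, a transcription factor induced by many kinds of stress and by nerve injury, went the opposite way to DDIT3. Its single probe measured -2.69, -2.92, -3.04, -2.79 and -3.00 in normal PBS eyes and -2.40, -2.20, -2.33, -2.22 and -1.98 in normal CNTF eyes. In mutants it measured -3.07, -3.18, -2.65, -3.36 and -3.16 in PBS eyes and -2.54, -2.27, -2.13, -2.57 and -2.27 in CNTF eyes. Groups did not overlap in normal dogs, and in mutants the highest PBS eye, that of dog 3, lay just below the lowest CNTF eye. ATF3 rose by 0.66 ± 0.11 (1.59-fold, adjusted p = 0.00095, limma) and by 0.73 ± 0.11 (1.66-fold, adjusted p = 0.000706, limma). The signal was dim though above background on every array, and after normexp correction neither rise passed (0.56, adjusted p = 0.0804, and 0.68, adjusted p = 0.0592, limma).

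TRIB3 inhibits kinases and CHAC1 degrades glutathione. TRIB3 measured -2.26, -2.85, -2.62, -2.37 and -3.00 in normal PBS eyes and -2.02, -2.22, -1.90, -1.81 and -1.39 in normal CNTF eyes. In mutants the PBS eyes measured -2.41, -0.57, -2.23, -2.81 and -3.02 and the CNTF eyes lay between -2.26 and -1.90. The normal groups did not overlap, and 4 of 5 mutants were higher in the CNTF eye, dog 2 being the exception.

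The TRIB3 difference was 0.75 ± 0.32 in normal dogs (adjusted p = 0.0693, limma) and 0.08 ± 0.32 in mutants (adjusted p = 0.874, limma). Because the spread is shared, leaving out mutant dog 2 made the normal dogs' value pass (0.75, adjusted p = 0.00761, limma), as did quantile normalization (0.85, adjusted p = 0.0454, limma). CHAC1 measured -2.92, -3.88, -3.74, -3.95 and -4.19 in normal PBS eyes and -3.30, -3.88, -2.66, -3.32 and -2.80 in normal CNTF eyes, a difference of 0.55 ± 0.23 (adjusted p = 0.0676, limma). Its difference in mutants was -0.07 ± 0.23 (adjusted p = 0.861, limma), with 1 of 5 dogs higher. CHAC1 was the sole member not above background everywhere, at 4 of 5 normal and 3 of 5 mutant CNTF arrays. Its normal difference passed without normal dog 1 (0.78, adjusted p = 0.0141, limma), without normal dog 2 (0.69, adjusted p = 0.0457, limma), after quantile normalization (0.74, adjusted p = 0.0223, limma) and in the deposited values (0.72, adjusted p = 0.0265, limma).

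The array slide moved with treatment, and within each treatment with genotype. PBS arrays lay on slides 1 to 3 and CNTF arrays on slides 3 to 5, and slide 3, the sole one with both, carried normal dogs 1 and 2 after CNTF and mutant dogs 4 and 5 after PBS, which differ in genotype as well. Within slide 3 the CNTF arrays were higher by 1.54 for ASNS, by 0.91 for SHMT2 and by 0.96 for ATF3, without overlap. On the same slide the CNTF arrays were at -0.58 relative to the PBS arrays for DDIT3, and at -0.34, -0.64 and -0.66 for ATF4 probes 1, 2 and 3. With slide in place of the dog as a block, ASNS differed by 2.62 in normal and 1.62 in mutant dogs, and of the other 9 members 0 passed in either genotype, with SHMT2 at 1.25 and 0.52 and ATF3 at 0.99 and 0.59. DDIT3 then stood at -0.23 and -0.63, and the main ATF4 probe at 0.24 and -0.14, so its sign in normal dogs turned. Slide and treatment cannot be told apart beyond these values.

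**Figure D3:**
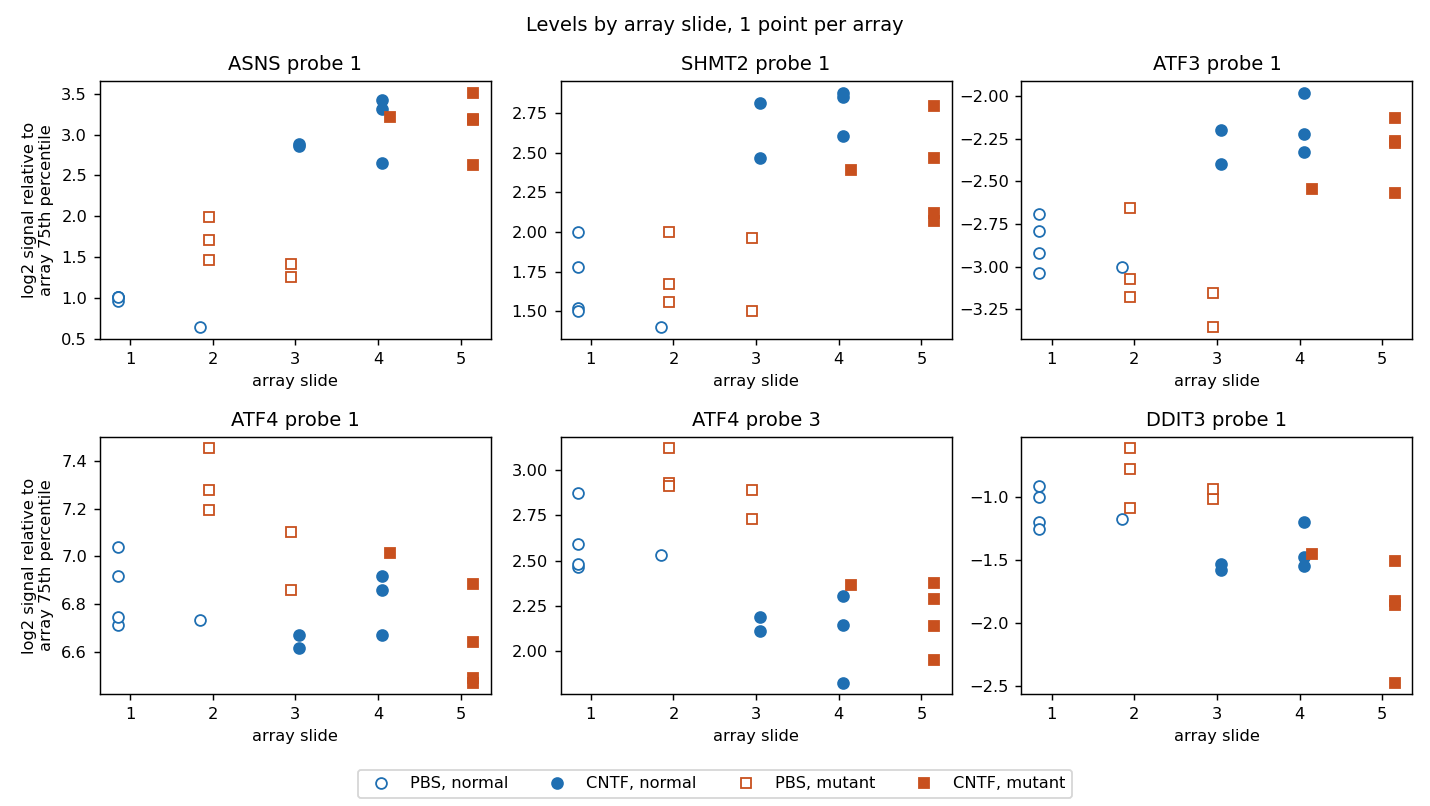
Levels of 5 genes (6 probes; y axes, log2 signal relative to the array's 75th percentile) on each of the 20 arrays by slide (x axis); open marks are PBS and filled marks CNTF eyes, circles normal and squares mutant dogs. On slide 3, the slide with both treatments, the filled circles lie above the open squares for ASNS, SHMT2 and ATF3 and below them for ATF4 and DDIT3.

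Microglia and macrophage markers moved in the same eyes. Of 15 listed markers 12 were measured, and all 12 rose in normal dogs and 11 in mutants, CD68 being the exception. Their summed level, in units of the array's 75th percentile, was 5.15 to 6.83 in normal PBS eyes and 25.5 to 39.7 in normal CNTF eyes, and 7.15 to 10.4 and 27.1 to 44.4 in mutants. CX3CR1, the microglial fractalkine receptor, was not well above background on any PBS array, and TREM2 was so on 1 mutant PBS array alone. Both passed the filter on dim probes through CNTF eyes alone, so their rise follows in part from that filter. Rod markers went the other way in mutants, with 7 of 9 lower and 0 higher, against 4 lower and 1 higher in normal dogs. Of 9 tested markers of Mueller glia and astrocytes, 6 rose and 2 fell in normal dogs and 3 rose and 3 fell in mutants. GFAP passed the filter on dim probes through CNTF eyes alone, and S100B, which fell, through PBS eyes alone. No summed level is given for the 10 measured, because DKK3, a bright marker, lacked values on too many arrays to be tested. Of 9 markers of the pigment epithelium and melanocytes, 4 fell in normal dogs and 3 in mutants, and 0 rose. RPE65, saturated on most arrays, dominates their summed level, which was 121 to 167 in normal PBS eyes and 141 to 174 in normal CNTF eyes, and 140 to 206 and 120 to 176 in mutants. RGR lacked values in some normal eyes, and a missing value adds nothing to a sum. TYRP1, which fell in normal dogs, passed the filter on dim probes through their PBS eyes alone. Over named genes 26.8% were called higher and 24.3% lower in normal dogs, and 13.4 and 17.3% in mutants. The part of these changes in cell markers in the members' values was not tested.

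The difference between genotypes in the CNTF change was tested in the same model. No member passed, and 0 of 29336 probes did (0%), while 10163 had an unadjusted p under 0.05, as did 4 of the 9 members other than ASNS. The change in mutants minus that in normal dogs was -0.52 ± 0.21 for the main ASNS probe and -0.29 ± 0.21 for the second, a description with no test. On main probes it was -0.45 ± 0.18 for SHMT2 (adjusted p = 0.114, limma), -0.58 ± 0.21 for DDIT3 (adjusted p = 0.108, limma), -0.76 ± 0.28 for PHGDH (adjusted p = 0.107, limma) and -0.39 ± 0.16 for ATF4 (adjusted p = 0.122, limma). On the second SHMT2 probe it was -0.12 ± 0.14 (adjusted p = 0.533, limma), and on ATF4 probes 2 and 3 it was -0.46 ± 0.19 and -0.22 ± 0.16. For ATF3 it was 0.06 ± 0.16 (95% interval -0.29 to 0.42). For the main ATF4 probe, saturated on some PBS arrays of both genotypes, it was -0.05 after quantile normalization and -0.07 in the authors' deposited values, and for DDIT3 it was -0.09 after normexp correction. The falls of ATF4 and DDIT3 in mutants are therefore not shown to differ from the values in normal dogs.

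Without CNTF, mutant and normal retinas were compared in PBS eyes, where 8 of 29433 probes (0.0272%) were called and 0 of the 10 members. Mutants also differed from normal dogs in sex and labelled age. PBS arrays of normal dogs lay on slides 1 and 2, those of mutants on slides 2 and 3. The fit had no covariate for these, so genotype cannot be told apart from them there. The share of probes well above background was 67.2 to 71.9% in normal and 60.8 to 66.3% in mutant PBS eyes, without overlap. Its part in these differences was not tested. ASNS was the member with the lowest p. Over all probes 5.41% had groups without overlap. On the main ASNS probe the mutant PBS eyes, from 1.26 to 1.99, all lay above the normal ones, from 0.64 to 1.02. The difference was 0.64 ± 0.15 (1.56-fold, adjusted p = 0.0953, limma). It passed without normal dog 1 (0.66, adjusted p = 0.0362, limma), a fit in which 6296 probes were called, and within slide 2 the 3 mutant arrays averaged 1.08 above the sole normal one. The second ASNS probe differed by 0.31 ± 0.17 (95% interval -0.06 to 0.68, adjusted p = 0.201, limma), and its groups overlapped. On their main probes ATF4 differed by 0.35 ± 0.13 (adjusted p = 0.113, limma) and PSAT1 by 0.32 ± 0.13 (adjusted p = 0.123, limma), with 95% intervals from 0.05 to 0.64 and from 0.03 to 0.61. PSAT1 probes 2 and 3 differed by 0.08 and 0.13, with 95% intervals from -0.21 to 0.38 and from -0.14 to 0.39. ATF4 probes 2 and 3, which unlike the main probe were never saturated, passed without normal dog 1, at 0.38 (adjusted p = 0.0469, limma) and 0.40 (adjusted p = 0.0402, limma). These differences depended on the scaling: after quantile normalization ATF4 probes 1, 2 and 3 differed by 0.032, 0.057 and 0.14 and PSAT1 by 0.11, and in the deposited values by 0.029, 0.032, 0.13 and 0.11, with ASNS at 0.58 and 0.57.

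In CNTF eyes 2 of 29360 probes (0.00681%) differed between genotypes and 0 members did. Here too the genotypes differed in sex and labelled age, and normal arrays lay on slides 3 and 4 and mutant arrays on slides 4 and 5. ASNS in mutants was 0.12 ± 0.20 above its level in normal dogs (95% interval -0.31 to 0.55), so its CNTF eyes spanned much the same range in both genotypes. SHMT2 had the lowest p among the main probes, at -0.35 ± 0.16 (adjusted p = 0.884, limma), and its second probe stood at -0.32 ± 0.12 (adjusted p = 0.793, limma).

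Of 12 genes for the kinases and the control of eIF2, 11 were measured. In normal dogs 3 rose and 1 fell, with a median difference of 0.26 against -0.01 over 10717 named genes, of which 26.8% were called higher and 24.3% lower. The ones that rose were EIF2B5 (0.44 ± 0.11) and EIF2B4 (0.52 ± 0.14), subunits of the exchange factor that reloads eIF2, and EIF2S1 (0.34 ± 0.10), the subunit the kinases phosphorylate. EIF2AK4, the kinase GCN2 that senses uncharged tRNA, fell by 0.36 ± 0.11 in normal dogs (adjusted p = 0.0188, limma), with 5 of 5 dogs lower, and stood at 0.17 ± 0.11 in mutants (adjusted p = 0.277, limma).

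In mutants 1 of these 11 genes rose and 2 fell, where 13.4% of named genes were called higher and 17.3% lower. They were picked out after their values were seen. EIF2AK2, the interferon-induced kinase PKR, rose in mutants (adjusted p = 0.0027, limma), where it was well above background on 0 of 5 PBS arrays and 3 of 5 CNTF arrays. Set against the lowest signal well above background on each PBS array, its CNTF mean was 1.97-fold higher. That mean includes CNTF arrays not well above background, so 1.97 is no strict bound. In normal dogs EIF2AK2 differed by 0.92 ± 0.41 (adjusted p = 0.0769, limma). It passed the filter on dim probes through the CNTF eyes of normal dogs alone. EIF2B1 fell by 0.53 ± 0.13 and PPP1R15B, which helps remove the phosphate from eIF2, by 0.52 ± 0.12.

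Of 15 other targets and partners of ATF4, 7 were measured, and in normal dogs 2 rose and 1 fell. Of named genes 26.8% were called higher there and 24.3% lower. EIF4EBP1, which restrains cap-dependent translation, rose by 0.74 ± 0.11 in normal dogs (adjusted p = 0.000379, limma) and by 0.55 ± 0.11 in mutants (adjusted p = 0.0032, limma). NUPR1, a stress-induced chromatin protein, rose by 0.98 ± 0.27 in normal dogs and stood at 0.30 ± 0.27 in mutants. KLHL24, a ubiquitin ligase adaptor, fell by 0.58 ± 0.11 and by 0.91 ± 0.11, and VLDLR, a lipoprotein receptor, stood at -0.28 ± 0.11 in normal dogs and fell by 0.72 ± 0.11 in mutants. In mutants 1 of the 7 rose and 3 fell, where 13.4% of named genes were called higher and 17.3% lower. The third that fell was JDP2 (-1.11 ± 0.29, named after its value was seen). JDP2 passed the filter on dim probes through PBS eyes alone. The list median was -0.06 in normal dogs and -0.24 in mutants, against -0.01 and -0.07 over named genes.

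Of 11 amino acid transporters of the programme 8 were measured. In normal dogs 2 rose and 3 fell, and in mutants 0 rose and 2 fell. Over named genes 26.8% were called higher and 24.3% lower in normal dogs, and 13.4 and 17.3% in mutants. SLC1A5, a carrier of neutral amino acids including glutamine, rose by 0.85 ± 0.15 in normal dogs and SLC7A1, a carrier of arginine and lysine, by 0.41 ± 0.11, whereas in mutants they stood at 0.19 ± 0.15 and 0.09 ± 0.11. SLC38A1, a glutamine carrier, fell by 1.15 ± 0.11 in normal dogs and by 1.16 ± 0.11 in mutants, lower in all 10 dogs. The glycine carrier SLC6A9 fell by 0.40 ± 0.10 in normal dogs. Named after their values were seen, SLC38A2, another glutamine carrier, fell by 0.36 ± 0.12 in normal dogs and SLC3A2, a partner of several carriers, by 0.46 ± 0.14 in mutants. The list median was -0.16 in both genotypes.

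Of 17 further genes of serine, glycine, one-carbon and proline synthesis 13 were measured. In normal dogs 6 rose and 2 fell (median 0.30), where 26.8% of named genes were called higher and 24.3% lower. In mutants 0 rose and 3 fell (median -0.03), where the shares were 13.4 and 17.3%. PYCR1, which completes proline synthesis, rose in normal dogs by 0.42 ± 0.10 and stood at 0.26 ± 0.10 in mutants. ALDH18A1, which begins proline synthesis, fell by 0.57 ± 0.10 and by 0.41 ± 0.10. GOT1, the cytosolic aspartate aminotransferase, fell by 0.59 ± 0.14 in normal dogs and by 1.25 ± 0.14 in mutants (adjusted p = 7.04e-05, limma), lower in 10 of 10 dogs. GPT2, an alanine aminotransferase named after its value was seen, fell by 0.68 ± 0.18 in mutants.

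The protein folding branches of the stress response, run by XBP1 and ATF6 rather than ATF4, made up the last list. Of 18 genes 16 were measured and 15 could be tested. In normal dogs 9 rose and 1 fell (median 0.47), and in mutants 6 rose and 0 fell (median 0.33), where 26.8 and 13.4% of named genes were called higher. SDF2L1, a partner of the chaperone BiP, rose by 1.5 ± 0.18 and by 0.81 ± 0.18, and the disulphide isomerase PDIA4 by 1.03 ± 0.12 and by 0.54 ± 0.12. The secreted survival factor MANF rose by 0.93 ± 0.12 and by 0.39 ± 0.12, and HSPA5, which encodes BiP, by 0.76 ± 0.09 and by 0.33 ± 0.09. SEL1L, part of the machinery that removes misfolded protein, fell by 0.80 ± 0.13 in normal dogs and was named after its value was seen. That some genes of this list rose was already known when it was drawn up. Its counts and medians thus follow in part from that choice and are no result set against the share of named genes. With slide as a block, 0 genes of the 5 lists passed in either genotype.

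**Figure D4:**
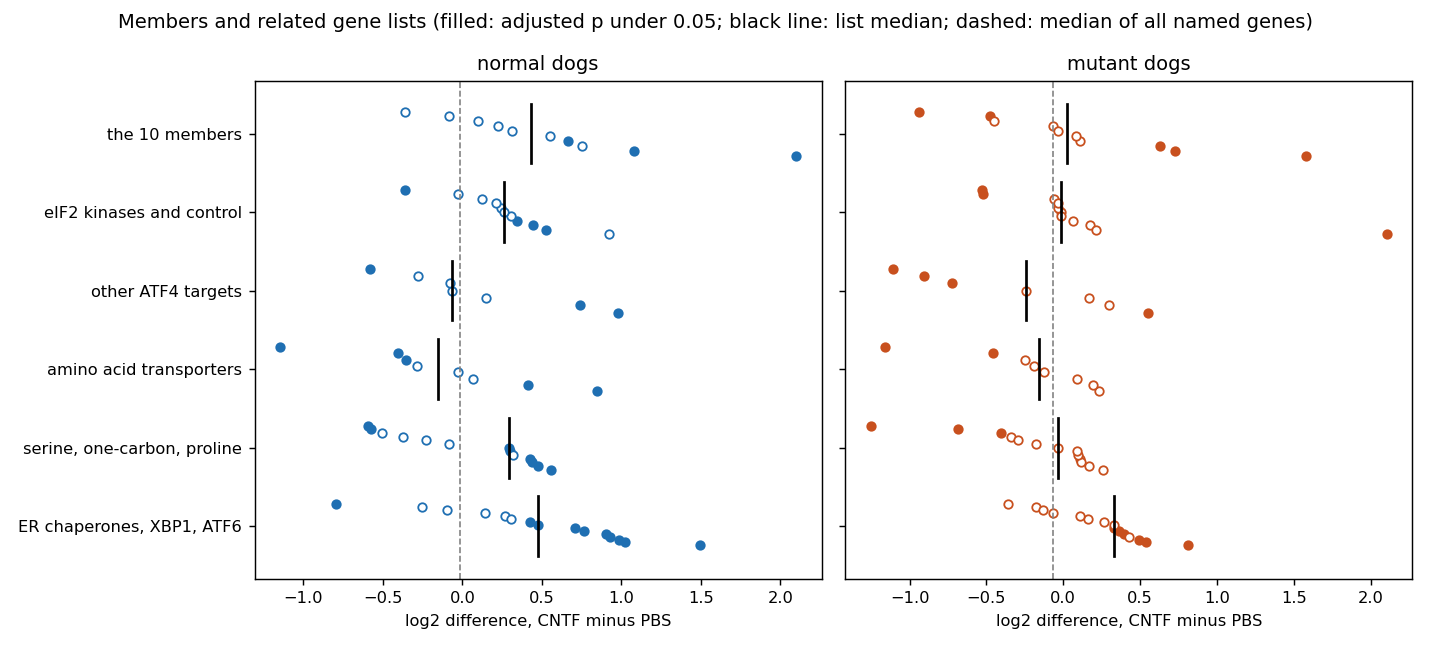
Difference between CNTF and PBS eye (x axes, log2) for each measured gene of the 10 members and of the 5 related lists, in normal (left) and mutant dogs (right); filled points passed at an adjusted p under 0.05, black lines are list medians and the dashed line is the median of all named genes. The folding genes, listed with some of their rises already known, centre at 0.47 and 0.33. The transporters centre at -0.16 in both genotypes, and the members spread from -0.94 to 1.58 in mutants.

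Over the 20 arrays the genes whose levels were most like those of ASNS were RARRES2 (r = 0.97), TMEM176A, BATF2, LGALS3BP and TNFRSF1A (all r = 0.97), of 7698 genes above background throughout. These arrays share the treatment and slide layout, so the coefficients describe that common step and carry no test. TMEM176A differed between CNTF and PBS eyes by 2.32 and 1.72 and LGALS3BP by 2.71 and 2.19 in normal and mutant dogs. Among the other members ATF3 (r = 0.84) had rank 654 and SHMT2 (r = 0.82) rank 738. TRIB3 stood at 0.61 and PHGDH at 0.28, and MTHFD2 (-0.11), ATF4 (-0.24), PSAT1 (-0.29) and DDIT3 (-0.63) had negative coefficients.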

How the data were processed

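Retinal RNA of 10 dogs, 1 array per eye, was labelled with Cy3, per the labels' protocols (100 ng input, integrity above 8). Spot intensity was deposited by the authors, with flags for background, saturation and outliers, background-subtracted but not scaled between arrays, and Agilent Feature Extraction 9.5.3.1 is named in the submitters' processing notes beside Partek 6.4. The authors' deposited matrix holds log2 values with a median of 6.18 in every column; how it was made is not given in the sources used here, and it served as an alternative.

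Control spots (1417 per array) and outlier spots were left out, spots of a probe were averaged, and log2 signal minus each array's 75th percentile was used. Of 43603 probes 29545 were kept, those above background in 4 or more of the 5 arrays of any group, and tested where each group had 3 or more values. Names were taken from the files and from a RefSeq table of the assembly UU_Cfam_GSD_1.0. Limma 3.58.1 in R 4.3.3 fitted all 20 arrays with a block per dog and 1 CNTF term per genotype, and genotypes were compared on 10 arrays each without covariates, two-sided. Eyes were paired by dog, since each dog gave both eyes and same-numbered samples are labelled with the same sex, age and genotype. Several dogs share these labels, normal dogs 1, 2, 4 and 5 among them, so only the numbering pairs their eyes. Same-numbered arrays correlated at 0.173 to 0.734 in their deviations over the 500 most variable probes and at -0.15 to 0.69 over all. The PBS eye was most like the same-numbered CNTF eye of its genotype in 9 of 10 dogs over those 500 probes and in 5 over all. The fit was tested on simulated data.

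Named are all members, the 4 genes of each list with the lowest adjusted p in normal dogs, and the 5 genes most like ASNS; a gene this rule names is not reported here. Members and lists were chosen with earlier results of these data known. Slides were read from barcodes, and scan times parted the arrays alike. Alternatives were normexp background correction, quantile normalization, the deposited matrix, other filters, no dog block, slide blocks, single dogs left out, male dogs alone and the mean of a gene's probes. Promoter and protein sequences were not used here.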

Additional observations from a re-analysis of the deposited data

Results flagged for a closer look

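DDIT3 was flagged in the CNTF eyes of normal dogs, where dog 5 at -1.20 stood apart from the other 4, which lay between -1.58 and -1.47. KLHL24 in mutant PBS eyes was highest in dog 2 at 1.29, against 0.76 to 0.87 in the others. EIF2B4 in mutant PBS eyes was also highest in dog 2, at 0.025 against -0.55 to -0.39. PYCR1 in mutant CNTF eyes was highest in dog 2 as well, at -0.59 against -1.45 to -1.27. These are gaps over 0.71 of the group's range, found in 4 of 120 groups of 5 arrays, and about 1 group in 20 would be picked by chance alone.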

How the results depend on the processing

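Of the 9 members other than ASNS, 2 were called in normal and 4 in mutant dogs. In normal dogs there were 1 after normexp correction, 5 after quantile normalization (14258 of 29336 probes called), 4 in the deposited matrix (14237 of 29545), 4 among probes above background on all 20 arrays (12068 of 21191), and 0 with slide as a block or with slide plus replicate block. The filter for probes above background on all 20 arrays left CHAC1 out. In mutants there were 1 after normexp correction and 0 with slide as a block or with slide plus replicate block. Without the replicate block that pairs the eyes of a dog they stayed at 2 and 4, with 11518 and 6664 probes called, and no member's call changed, although SLC6A9 in normal dogs and HSPA5 and MANF in mutants no longer passed. Leaving out single dogs gave 2 to 4 and 4 to 5 of the 9 members, 10950 to 14940 and 6382 to 8598 probes.

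Of all probes, normexp correction called 5758 in normal and 3297 in mutant dogs and moved the median difference from -0.09 to 0.09 and 0.17. Slide as a block called 1153 and 809, and slide plus replicate block 0 (4778 at an unadjusted p under 0.05) and 47. For the difference between genotypes in the CNTF change, slide as a block called 69 probes, slide as a random block 5 and slide plus replicate block 46, and single dogs left out gave 0 to 4, with 0 members throughout. In PBS eyes the genotype comparison called 2 probes after normexp correction, 1 after quantile normalization, 1 in the deposited matrix, 3 among probes above background on all arrays, 4 with no filter, 2 with slide as a block and 30 in male dogs alone. Slide as a random block, with an estimated slide correlation of -0.18, called 9920 there and 3 members, ASNS, ATF4 and PSAT1, and single dogs left out gave 1 to 6296 probes and 0 to 1 members. In CNTF eyes it called 0 after normexp correction, quantile normalization, in the deposited matrix, among probes above background on all arrays and with no filter, 103 with slide as a block, 28 with slide as a random block and 5 in male dogs alone, and 0 to 60 without single dogs, with 0 members throughout.

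Set against the values reported, direction turned in 3 cases where the reported or the other value was called: SLC6A9 in normal dogs with slide as a block (0.15), EIF2S1 in normal dogs (-0.019) and SDF2L1 in mutants (-0.20) with slide plus replicate block. The main ATF4 probe in normal dogs, not called here, fell after quantile normalization and in the deposited matrix but stood at 0.24 with slide as a block. The causes were not tested. ATF3, TRIB3 and CHAC1 were read at dim signals, and saturation limits the main ATF4 probe.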
